A study of Mus musculus with 8 samples.

Results

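The collagen genes are the loci of the 3 deposited gene tables whose symbol is Col, a number, the letter a and a number, with an estimate of status OK in both columns. They came to 42 symbols of 23471 named in the series, of which 40 stood in every table: 42 loci in the female knockout (KO) table, 41 in the male KO table and 41 in the KI table. Each table sets a mutant column beside its own control column, in FPKM (sequenced fragments per length of transcript and size of library). By class, 11 of the genes encode fibrillar chains, 6 encode type IV (basement membrane) chains, 6 encode type VI chains and 19 encode other collagens.

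The RNA came from B6/129 mouse myoblasts, cultured from satellite cells, the stem cells of muscle, and collected 24 h into differentiation. Reporter-positive cells had been sorted and grown with 20% serum, FGF and 2.5 µM 4-hydroxytamoxifen. The female wild type (WT) carried Pax7-CreER and Rosa26-Floxed-TdTomato, a tamoxifen-dependent Cre driven by the satellite cell gene Pax7 and a Cre-dependent red reporter, and the female KO carried UTX-Floxed besides. UTX is the histone H3 lysine 27 demethylase encoded by Kdm6a. For the male WT and KO and for the female KI and Ctrl-KI groups no genotype beyond these names is given, and neither the KI allele nor the age of the mice is given in the sources used here. There was 1 library each of female WT, female KO, male WT and male KO, and 2 each of KI and Ctrl-KI. The KI table holds 1 pooled column per group, so no single comparison has a replicate check, and whether libraries stand for separate animals is not stated.

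Collagens are secreted matrix proteins whose chains wind together into a rope-like helix built on glycine-rich repeats. Fibrillar collagens form the cable-like fibres of the interstitial matrix and are made mainly by connective tissue cells. Type IV collagen forms the sheet-like network of basement membranes, which in muscle wraps each fibre and its satellite cells, and type VI collagen forms beaded filaments that link that sheet to the interstitial matrix. Chains are hydroxylated and folded in the endoplasmic reticulum, trimmed outside the cell and cross-linked by lysyl oxidases.

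Read depth was not given, and the deposited confidence intervals are the only error on a value. Relative to the FPKM itself, the median interval was 118% wide for female WT, 168% for male WT and 39.8% for Ctrl-KI. Female WT and KO held 20.8 and 16.9 FPKM of Kdm6a, male WT and KO 7.87 and 2.08, and Ctrl-KI and KI 12.8 and 13.2. These values cover the whole gene, so reads outside a floxed part count in them; the exons lost from the UTX-Floxed allele are not named in those sources. Uty, its Y-linked paralogue, was 8.43 and 5.85 FPKM in male WT and KO and at or near 0 in the female tables. The related gene Kdm6b stood at 48.6 FPKM for female WT and 56.8 for female KO, and is merged with Tmem88 elsewhere. The myogenic markers were present in every column: the 10 genes of that list, from Pax7 to Ckm, summed to between 2738 and 13055 FPKM. In bulk RNA, more cells of a type and more RNA per cell cannot be told apart.

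Collagen RNA was higher in each mutant column than in its control, by very different amounts. The summed level of all collagen loci came to 677 FPKM for female WT and 1213 for female KO, 149.7 in male WT and 452 in male KO, and 85.04 in Ctrl-KI and 859 in KI. Fibrillar genes held 73.8% of the sum in female WT and 77.3% in female KO. Type IV genes held 26.9% in male WT and 47.2% in male KO. Fibrillar genes held 47.3% in Ctrl-KI and 66.1% in KI, and type VI genes 0.668% and 5.42%. Each table was estimated by itself, so levels were not compared by test between tables; the female WT sum was the highest of the controls. Markers of the fibro-adipogenic progenitors that make connective tissue in muscle also had higher sums in the mutants: 141 and 250.4 FPKM for the females, 80.6 and 147 for the males, and 74.3 and 193 in the KI table. Gsn and Tcf4, which many cells express and which are not specific to these progenitors, carry most of the male and KI control sums. The other 13 markers summed to 62.2 and 168, 5.09 and 42.9, and 5.48 and 105.0 FPKM. Their part in the collagen values was not tested.

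**Figure D1:**
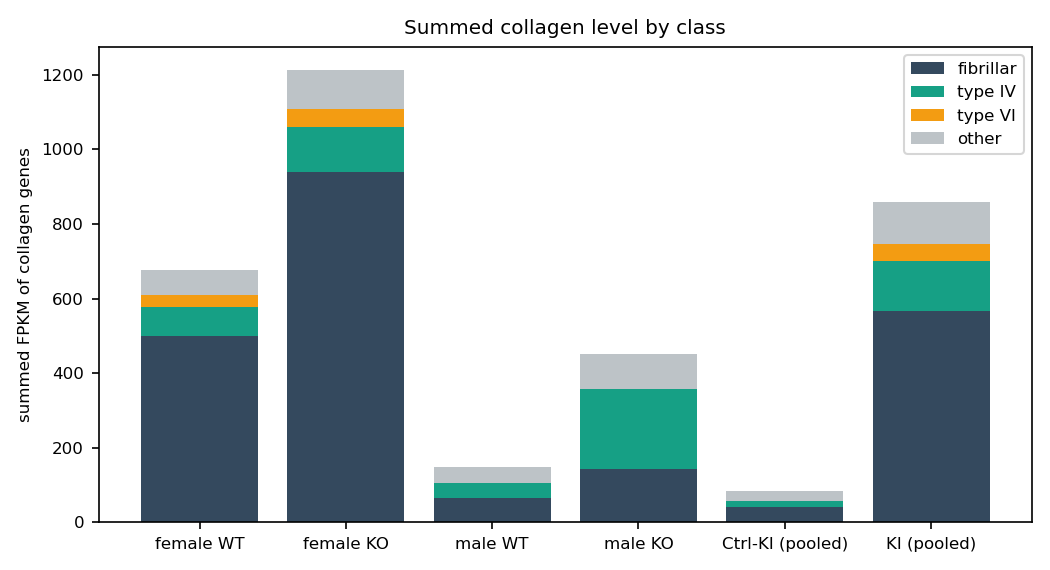
Summed FPKM of the collagen loci (vertical axis, from 0) in the 6 columns, stacked by class. The mutant bar is the taller of each pair, with fibrillar genes the main part in both female KO table columns and in KI, and type IV genes the largest part in male KO.

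For single genes the ratio log2((mutant FPKM + 1)/(control FPKM + 1)) was used, which understates the change of low genes, and a gene was called at a size of 1, that is 2-fold. Genes were kept at a mean of at least 1 FPKM over both columns: 24 collagens for the females, 15 for the males and 22 loci in the KI table. Of these, 1, 1 and 11 lay under 1 FPKM in the control and passed only through the mutant column, which fixes their direction.

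For female KO, 5 of 24 collagens were at least 2-fold higher and 0 were 2-fold lower, where 4.47% of all genes kept were 2-fold higher and 4.45% lower. For male KO, 7 of 15 were 2-fold higher and 1 was 2-fold lower, beside 9.81% and 6.54% of all genes. For KI, 17 of 22 were 2-fold higher and 0 lower, beside 3.52% and 0.877%. Among collagens with at least 1 FPKM in the control, a choice blind to the mutant column, 5 of 24 were 2-fold higher in female KO, 6 of 14 in male KO and 7 of 11 in KI, where 3.82%, 7.13% and 1.97% of all such genes were. By the same choice 0, 1 and 0 were 2-fold lower, beside 4.60%, 6.94% and 0.935% of all genes. Median log2 ratios were 0.60, 0.91 and 2.77 over the collagens kept and -0.09, -0.03 and -0.04 over all genes kept. Scaling each column to its sum over all loci (TPM) moved the last of these medians to 0.09, -0.71 and -0.78 and the collagen medians to 0.72, 0.32 and 1.98. The share of higher among all 2-fold calls was 50.1%, 60.0% and 80.0% in female KO, male KO and KI, and 73.5%, 8.50% and 8.71% under that scaling. Under it 2 of 11 collagens in male KO, Col4a1 and Col4a2, were 2-fold higher and 2 were lower, beside 2.36% and 25.4% of all genes.

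For collagens the deposited intervals lay apart in the KI table alone. There the KI interval lay wholly above the Ctrl-KI interval for 18 of 22 collagen loci, beside 7.43% of all genes kept. Of these loci 11 were kept only through the KI column; among those with at least 1 FPKM in Ctrl-KI it was 7 of 11, beside 5.36% of such genes. In the wider intervals of the KO tables this held for 0 of 24 and 0 of 15, beside 0.658% and 0.614% of all genes. Among collagens kept, 0 in each table had a mutant interval wholly below its control, beside 0.241%, 0.271% and 3.62% of all genes for female KO, male KO and KI; below the filter, Col24a1 had one in KI (0.185 and 0.0674 FPKM). Single collagens of the KO tables are therefore given as values whose intervals overlap.

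**Figure D2:**
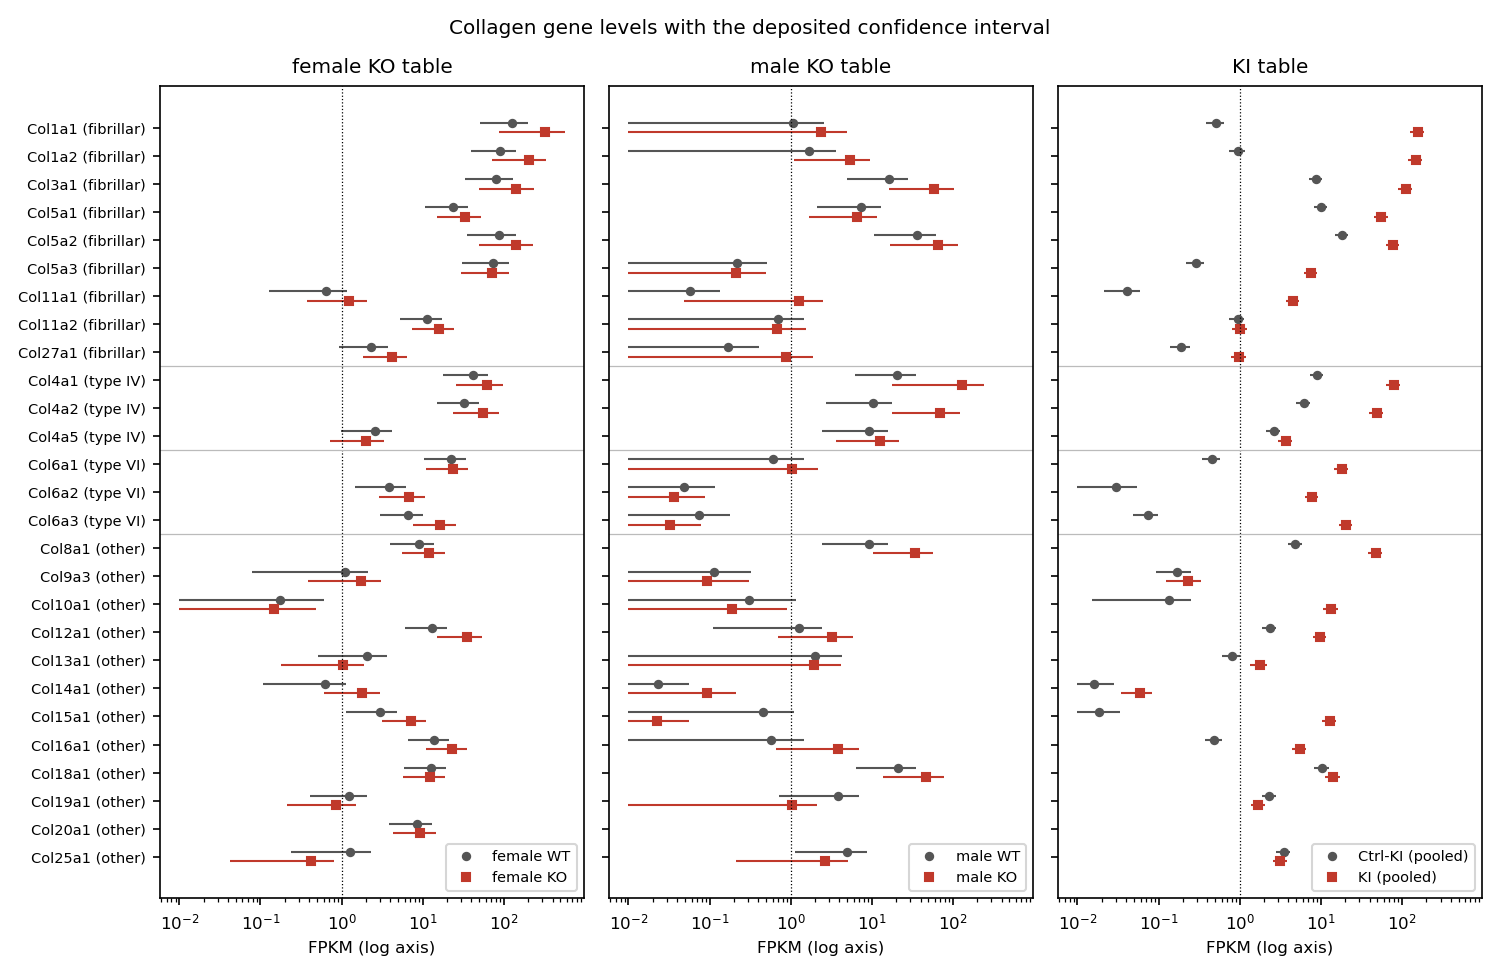
FPKM (log axis) of the 27 collagens with a mean of at least 1 FPKM in at least 1 table, control as grey circles and mutant as red squares, with the deposited confidence interval as a line. Values and bounds under 0.01 are drawn at 0.01, and of the 2 Col13a1 loci of the KI table the one with the higher KI value is shown. The intervals overlap in both KO tables and are apart for 18 of the KI loci kept.

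Type I collagen, the main fibre of tendon, skin and scar, is a trimer of Col1a1 and Col1a2 chains. Col1a1 (mm9 chr11:94797518-94814360 in the KI table) stood at 127 FPKM for female WT and 325 for female KO, 1.08 for male WT and 2.35 for male KO, and 0.515 for Ctrl-KI and 158 for KI. Col1a2 (mm9 chr6:4455697-4491543) gave 90.8 and 202 FPKM in female WT and KO, 1.71 and 5.37 in male WT and KO, and 0.943 and 149 in Ctrl-KI and KI. Each mutant value was the higher of its pair, but the pairs lay at unlike heights: abundant in both female KO table columns, near 1 FPKM in male WT and under 1 FPKM in Ctrl-KI.

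The log2 ratios of Col1a1 were 1.35 in female KO, 0.69 in male KO and 6.72 in KI, and those of Col1a2 were 1.15, 1.23 and 6.27. In the KI table these placed Col1a1 at rank 5 and Col1a2 at rank 7 of 10834 genes by ratio, with controls under 1 FPKM for both. Col1a1 was also the most abundant collagen in female WT, female KO and KI, though its interval overlapped that of Col1a2 in all of them. FPKM is scaled by length, so the paired chains can be set beside each other. The level of Col1a1 was 1.39 times that of Col1a2 in female WT and 1.61 times in female KO, 0.634 and 0.439 times in male WT and KO, and 0.547 and 1.06 times in Ctrl-KI and KI.

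Col3a1, whose chains form the thin fibres laid down early in repair, and Col5a2, a chain of the type V collagen that starts fibril growth, lie side by side in the genome, 24624 bases apart (mm9 chr1:45368383-45406551 and mm9 chr1:45431176-45560127). Col3a1 stood at 81.4 and 142 FPKM in female WT and KO, 16.4 and 59.1 in male WT and KO, and 8.72 and 112 in Ctrl-KI and KI (log2 ratios 0.80, 1.79 and 3.54). Col5a2 was 88.2 and 141 FPKM, 36.1 and 66.0, and 18.2 and 77.9 in the same order (log2 ratios 0.67, 0.85 and 2.04). Both were higher in each mutant, and Col3a1 by more than its neighbour in each table. Col5a2 was the most abundant collagen in male WT and in Ctrl-KI. Its interval there overlapped those of Col18a1 and Col4a1 in male WT, and in Ctrl-KI it lay wholly above that of Col18a1, the next in order.

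The remaining type V chains differed from each other. Col5a1, the partner of Col5a2, stood at 23.4 and 33.4 FPKM in female WT and KO, 7.47 and 6.64 in male WT and KO, and 10.1 and 56.1 in Ctrl-KI and KI, log2 ratios 0.49, -0.15 (0.01 under TPM over loci with a symbol) and 2.36. Col5a3, the rarer partner of these chains, was 74.0 and 72.6 FPKM for the females, 0.219 and 0.211 for the males and 0.291 and 7.63 in the KI table. Its female log2 ratio of -0.03 was 0.06 with median-centred ratios and 0.15 under TPM. It was thus a leading collagen of both columns of the female table and under 0.3 FPKM in male WT, male KO and Ctrl-KI. Col11a1 and Col11a2 encode chains of type XI collagen, the cartilage counterpart of type V. Col11a1 stood at 0.641 and 1.22 FPKM in female WT and KO, 0.0578 and 1.27 in male WT and KO, and 0.0405 and 4.56 in Ctrl-KI and KI. Col11a2 was 11.3 and 15.9 FPKM in the female table and between 0.684 and 1.02 in the other columns. Col27a1, a fibrillar chain of growing cartilage, was 2.34 and 4.14 FPKM in the female table (log2 ratio 0.62) and under 1 FPKM in the others, with 0.169 and 0.865 in the male table and 0.192 and 0.980 in the KI table. By class, 2 of the 8 fibrillar genes kept for the females, 2 of 5 for the males and 7 of 7 in the KI table were at least 2-fold higher. Of all genes kept, 4.47%, 9.81% and 3.52% were. Among the 7 fibrillar genes of the KI table, 4 had a control under 1 FPKM.

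Col1a2 was 2-fold higher in all 3 mutant columns, and Col3a1 2-fold higher in male KO and KI, so the 250 bases before the RefSeq start of each are shown (GRCm38.p6, another build than the mm9 of the gene tables, Col1a2 at chr6:4505368-4505617 and Col3a1 at chr1:45311288-45311537, both + strand). Capitals mark the CCAAT box (the letters CCAAT), the TATA box (searched as TATAAA) and the GC box that Sp1-type factors can bind (searched as GGGCGG), each on either strand.
Col1a2: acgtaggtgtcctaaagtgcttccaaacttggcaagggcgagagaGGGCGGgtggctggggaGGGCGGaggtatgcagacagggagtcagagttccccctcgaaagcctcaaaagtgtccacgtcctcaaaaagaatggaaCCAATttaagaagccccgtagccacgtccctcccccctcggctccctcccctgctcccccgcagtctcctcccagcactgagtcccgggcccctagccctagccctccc
Col3a1: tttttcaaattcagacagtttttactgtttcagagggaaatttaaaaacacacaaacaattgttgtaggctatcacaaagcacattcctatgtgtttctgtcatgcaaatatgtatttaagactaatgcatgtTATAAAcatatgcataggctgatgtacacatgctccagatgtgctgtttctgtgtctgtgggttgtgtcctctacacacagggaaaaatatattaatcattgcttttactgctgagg
The marked letters of these genes differ: GGGCGG and CCAAT in the Col1a2 stretch, and TATAAA in the Col3a1 stretch. Distance to the start was not weighed, so a match of letters is not shown to act as a box. RefSeq windows of 300 bases (250 before to 50 after a start) matched 34 of the 42 collagens by symbol, 37 windows in all. The GC box stood in 22 of the 37, beside 35.7% of all 32851 windows, the CCAAT box in 12 of 37 beside 37.4%, and the TATA box in 5 of 37 beside 13.6%. The E-box CANNTG, which MyoD-family factors can bind, stood in 20 of 37, beside 72.3%, the core of the Smad motif (CAGAC) in 19 of 37 beside 49.6%, and the AP-1 motif (TGANTCA) in 1 of 37, that of Col6a1, beside 7.81%. These counts took both strands, and a motif can overlap another. They describe letters in a window and name no bound factor.

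The type IV genes that encode the ubiquitous basement membrane trimer, Col4a1 and Col4a2, were higher in each mutant and by similar ratios. Col4a1 (mm9 chr8:11198423-11312826) stood at 41.4 and 62.5 FPKM in female WT and KO, 20.7 and 129.97 in male WT and KO, and 9.03 and 79.8 in Ctrl-KI and KI. Col4a2 (mm9 chr8:11312829-11449287) was 32.6 and 56.2 FPKM, 10.3 and 70.1, and 6.16 and 48.8 in the same order. Their log2 ratios were 0.58 and 0.77 in female KO, 2.59 and 2.65 in male KO, and 3.01 and 2.80 in KI, Col4a1 first. In male KO they were the most abundant collagens, and the intervals of Col4a1 were 6.31 to 35.1 in WT and 17.9 to 242 in KO. The level of Col4a1 was 1.27 and 1.11 times that of Col4a2 in female WT and KO, 2.01 and 1.86 times in male WT and KO, and 1.47 and 1.63 times in Ctrl-KI and KI.

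These genes stand head to head, with 2 bases between the loci in the tables. In RefSeq (GRCm38.p6) their transcripts start on opposite strands and overlap by the 22 bases chr8:11312805-11312826, shown on the + strand because both transcripts hold this stretch, on opposite strands. No motif is capitalised in it, although it holds the GC box letters GGGCGG.
Col4a1/Col4a2: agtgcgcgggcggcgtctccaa
The other type IV pairs are also neighbours, but in neither were both genes kept. Col4a5 and Col4a6, X-linked chains of specialised basement membranes whose loci lie 1342 bases apart in the female table, stood at unlike levels. Col4a5 was measured at 2.60 and 2.02 FPKM in female WT and KO, 9.18 and 12.6 in male WT and KO, and 2.64 and 3.70 in Ctrl-KI and KI, log2 ratios -0.25, 0.41 and 0.37, the last pair below 0 (-0.28 and -0.24) under TPM over all loci. Col4a6 was 0.0259 and 0.0103 FPKM for the females, 0.0802 and 0.603 for the males and 0.0356 and 0.134 in the KI table. Col4a3 and Col4a4, the chains of kidney and lung basement membranes, stood 71 bases apart and reached at most 0.402 FPKM (Col4a3 in female KO). Their log2 ratios were alike, 0.26 and 0.17 in female KO, 0.11 and 0.10 in male KO, and 0.01 and 0.01 in KI. At such levels a pairing cannot be judged. Of the type IV genes kept, 2 of 3 were 2-fold higher in male KO and in KI, and 0 of 3 in female KO. The shares of all genes kept were 9.81%, 3.52% and 4.47% in that order.

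Type VI genes stood at unlike levels in the 3 tables. Col6a1, which with Col6a2 and Col6a3 encodes the common type VI trimer, stood at 22.1 and 23.8 FPKM in female WT and KO, 0.608 and 1.03 in male WT and KO, and 0.462 and 18.2 in Ctrl-KI and KI. Col6a2 was 3.86 and 6.75 FPKM for the females, 0.0483 and 0.0360 for the males, and 0.0299 and 7.85 in the KI table. Col6a3 (mm9 chr1:92663433-92740587 in the KI table) was 6.59 and 16.6 FPKM, 0.0744 and 0.0329, and 0.0733 and 20.5 in the same order. All of them were low in male WT, male KO and Ctrl-KI, with 1.03 FPKM as the highest value, and present in both columns of the female table and in KI.

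Of the genes of this trimer, Col6a3 alone was 2-fold higher in female KO, at a log2 ratio of 1.21, beside 0.10 for Col6a1 and 0.67 for Col6a2. For KI the ratios were 3.71, 3.10 and 4.32 for Col6a1, Col6a2 and Col6a3, and each KI interval lay wholly above the control. All 3 were under 1 FPKM in Ctrl-KI and were kept only through the KI column, which fixes their direction. Among males 0 of 6 type VI genes reached a mean of 1 FPKM, and their sum was 0.735 FPKM in WT and 1.11 in KO. The level of Col6a3 relative to Col6a1 was 0.298 in female WT and 0.697 in female KO, and 0.159 in Ctrl-KI and 1.13 in KI. Col6a4, Col6a5 and Col6a6, alternative chains in a cluster on chr9, were at most 0.261 FPKM (Col6a4 in female KO).

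Among the other collagens, those that coat fibrils (FACIT collagens) went both ways, and Col12a1 and Col16a1 were higher in each mutant. Col12a1, which binds the surface of type I fibrils, stood at 13.1 and 34.8 FPKM in female WT and KO, 1.27 and 3.25 in male WT and KO, and 2.37 and 9.83 in Ctrl-KI and KI, log2 ratios 1.35, 0.91 and 1.69. Col16a1 was 13.9 and 23.2 FPKM, 0.581 and 3.83, and 0.488 and 5.52 in the same order (log2 ratios 0.70, 1.61 and 2.13). In the male and KI tables it was kept only through the mutant column. Col14a1 was 0.617 and 1.79 FPKM in the female table and under 0.1 in every other column. Col19a1, a FACIT collagen known from embryonic muscle, went the other way: it stood at 1.24 and 0.858 FPKM in female WT and KO, 3.86 and 1.05 in male WT and KO, and 2.32 and 1.70 in Ctrl-KI and KI. Its log2 ratios of -0.27, -1.24 and -0.30 were below 0 in every table, and it was the 1 collagen kept that was called 2-fold lower in any of them. Col22a1, another FACIT collagen, was also below control in every table, but at 0.0989 FPKM or less.

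Col8a1, a short chain that forms sheets around vessels and in the eye, stood at 8.95 and 12.1 FPKM in female WT and KO, 9.15 and 34.0 in male WT and KO, and 4.87 and 47.8 in Ctrl-KI and KI (log2 ratios 0.39, 1.78 and 3.05). It was 2-fold higher in male KO and KI, from control levels of at least 1 FPKM in each table. Col10a1, the short-chain collagen of hypertrophic cartilage, was 0.174 and 0.147 FPKM for the females, 0.306 and 0.188 for the males, and 0.133 and 13.3 in the KI table. Its locus in the KI table spans 114937 bases, the same as that of Nt5dc1, whereas the RefSeq gene is 7105 bases long, so reads of the overlapping genes may be hard to split. Nt5dc1 itself was 2.99 and 3.51 FPKM in Ctrl-KI and KI.

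Col15a1 and Col18a1 encode the multiplexins, which sit in or next to basement membranes. Col15a1 stood at 3.02 and 7.12 FPKM in female WT and KO, 0.456 and 0.0224 in male WT and KO, and 0.0185 and 12.8 in Ctrl-KI and KI. Col18a1, the source of endostatin, was 12.6 and 12.3 FPKM, 21.0 and 46.3, and 10.5 and 14.2 in the same order, log2 ratios -0.04, 1.10 and 0.41, the first and last of which turn sign (0.14 and -0.35) under TPM over all loci. The pair differed in where they were read: Col18a1 in every column, and Col15a1 above 1 FPKM in the female table and KI alone. In the KI table Col18a1 shares its locus with Slc19a1 (5.80 and 7.42 FPKM).

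The 2 transmembrane collagens kept in a table were at or below control in the KO libraries, apart from 0.12 for Col13a1 in male KO under TPM over loci with a symbol. Col13a1, a component of the neuromuscular junction, stood at 2.07 and 1.04 FPKM in female WT and KO and 2.02 and 1.97 in male WT and KO. The KI table lists it as 2 loci over the same span, at 0.811 and 1.77 FPKM and at 0.989 and 0.953 FPKM. Col25a1, needed by motor nerves to enter muscle, was 1.27 and 0.424 FPKM for the females, 4.93 and 2.62 for the males and 3.49 and 3.19 in the KI table (log2 ratios -0.68, -0.71 and -0.10). In the female table it lay under the mean of 1 FPKM. Among chains read in the female table alone, Col20a1 was 8.50 and 9.40 FPKM and Col9a3 1.11 and 1.73. Col20a1 is merged with Arfgap1 in the other tables, and Col9a3 shares its locus with Tcfl5.

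The remaining 15 members had a mean under 1 FPKM in every table they stood in: Col2a1 and Col24a1 of the fibrillar class, Col4a3, Col4a4 and Col4a6, Col6a4, Col6a5 and Col6a6, and Col8a2, Col9a1, Col9a2, Col17a1, Col22a1, Col23a1 and Col28a1. Their values ran from 0 to 1.05 FPKM, the highest being Col2a1, the cartilage fibril chain, in male KO (0.0471 in male WT). The mark of 1 FPKM in the control lay close to some members. In Ctrl-KI, Col13a1 (0.989), Col1a2 (0.943) and Col11a2 (0.942) fell just under it and Col19a1 (2.32) was the next above. Col7a1, the anchoring fibril collagen, is merged with other symbols in every table and was left out.

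**Figure D3:**
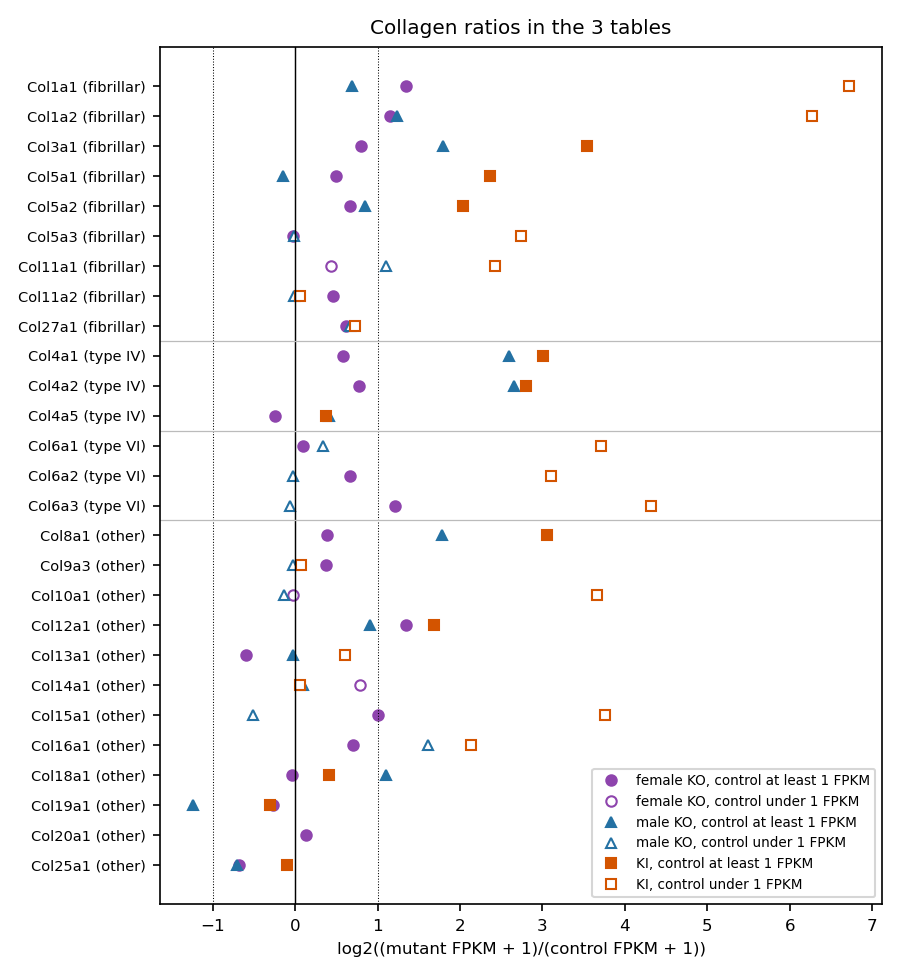
log2((mutant FPKM + 1)/(control FPKM + 1)) of the same 27 collagens in the female KO (circles), male KO (triangles) and KI (squares) tables, open where the control was under 1 FPKM. Dotted lines mark 2-fold; Col1a1 and Col1a2 in KI lie farthest right at 6.72 and 6.27, and Col19a1 lies left of 0 in all tables.

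The 3 tables share no library, so their directions can be set side by side. Of 13 collagens kept in all 3, 9 were above control in each mutant (Col1a1, Col1a2, Col3a1, Col4a1, Col4a2, Col5a2, Col8a1, Col12a1 and Col16a1) and 1, Col19a1, was below it in each, where 17.7% and 31.5% of all genes kept in the 3 tables were. Among these 9, Col1a1, Col1a2 and Col16a1 had a KI control under 1 FPKM, as Col16a1 had in male WT, so that the filter fixed their direction there. With at least 1 FPKM in every control it was 6 of 11 above (without those genes) and 2 below, beside 16.4% and 32.3% of all genes. Between female and male KO, 9 of 14 were above control in both and 2 below it in both. Col4a5, Col5a1 and Col18a1 lay on opposite sides, in differences that were not tested. The small ratios among these turned with the scaling: TPM over all loci gave -0.28 for Col4a5 in male KO and 0.14 for Col18a1 in female KO, and TPM over loci with a symbol 0.01 for Col5a1 in male KO. By the 2-fold call, which adds 1 FPKM to each value, 1 gene, Col1a2, was shared by female and male KO (of 3 and 7 called among those 14). Under TPM over all loci the male ratio of Col1a2 was 0.48. Without the added 1 FPKM, Col1a1 (2.57 and 2.17 times control) and Col12a1 (2.66 and 2.56 times) also passed 2-fold in female and male KO. Their male WT values were low, at 1.08 and 1.27 FPKM. The counts that follow use the call. Male KO and KI shared 6, namely Col1a2, Col3a1, Col4a1, Col4a2, Col8a1 and Col16a1, of 7 and 10 called among 14 kept in both. Female KO and KI shared 5 (Col1a1, Col1a2, Col6a3, Col12a1 and Col15a1), of 5 and 15 called among 18. For pairs of tables the shares over all genes were not counted, so these pair counts are not read as a result about collagens.

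The female and male KO ratios were also tested together, with the sexes as replicates; no collagen passed. In limma on the female and male log2 ratios, with 1 residual degree of freedom, 0 of 14 collagens passed an adjusted p of 0.05 in either direction. Of all 10206 genes 1 rose, or 0.0098%, and 0 fell. At an unadjusted p under 0.05, 9 of the 14 were higher and 0 lower, beside 9.15% and 10.1% of all genes. With at least 1 FPKM in both controls it was 8 higher and 2 lower (Col19a1 and Col25a1) of 14, beside 7.54% and 11.0%. Under TPM over loci with a symbol it was 11 higher and 1 lower (Col25a1) of 19, beside 13.7% and 6.04%. Col1a2 had the smallest adjusted p, 0.0933, with a mean log2 ratio of 1.19 ± 0.21 (moderated SE). The means of Col4a2, 1.71 ± 0.46, and Col4a1, 1.59 ± 0.48, were larger but less alike in the sexes, at adjusted p of 0.138 and 0.169. That SE is shrunk towards the trend of all genes.

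Of the enzymes and chaperones of collagen synthesis a minority passed 2-fold in each table. At least 2-fold higher were 1 of 31 such genes kept in female KO, 7 of 27 in male KO (with 4 lower) and 9 of 29 in KI (5 with a control under 1 FPKM), beside the 4.47%, 9.81% and 3.52% of all genes. The median log2 ratios of the list were 0.18, 0.38 and 0.45. The highest log2 ratios were those of cross-linking lysyl oxidases: Lox stood at 199 and 391 FPKM in female WT and KO, 1.60 and 19.5 in male WT and KO, and 1.85 and 132 in Ctrl-KI and KI. Loxl2 was 44.4 and 103, 1.47 and 17.9, and 0.841 and 51.7 FPKM. The lowest ratios in female KO were those of Serpinh1, the collagen chaperone HSP47 (189 and 135 FPKM), and Adamts14, which trims procollagen (12.3 and 8.89). In male KO they were those of Tmem38b, an endoplasmic reticulum potassium channel (59.7 and 16.9), and Loxl1 (33.8 and 10.8). In KI they were those of Leprel1, a prolyl 3-hydroxylase (1.90 and 1.05), and Adamts14 (22.9 and 17.1).

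Receptors and collagen-degrading proteases follow. Of the receptors kept, 1 of 8 in female KO, 1 of 4 in male KO and 3 of 6 in KI (2 with a control under 1 FPKM) were 2-fold higher, beside 4.47%, 9.81% and 3.52% of all genes; the first counts are single genes. Itga2, an integrin chain that binds type I collagen, stood at 2.31 and 9.78 FPKM in female WT and KO, and Itga11, which binds the same, was 1.53 and 3.21 there and 0.154 and 4.50 in Ctrl-KI and KI. Mrc2, which takes up cleaved collagen, was 13.2 and 42.3 FPKM in male WT and KO and 16.4 and 41.6 in Ctrl-KI and KI. Itgb1, the partner chain of these integrins, was 256 and 274 FPKM in the male table. Ddr1, a collagen-binding kinase, was abundant but had the lowest log2 ratio of the receptors kept in each table: 62.9 and 40.2 in the female, 176 and 109 in the male and 157 and 110.5 FPKM in the KI table. Its relative Ddr2 was 44.3 and 32.3 FPKM in male WT and KO and 34.8 and 31.5 in Ctrl-KI and KI, and Itga1 was 2.60 and 1.89 in female WT and KO. Proteases were 2-fold higher in 4 of 6, 2 of 2 and 4 of 4 cases, 2 of the last with a control under 1 FPKM, beside the same shares of all genes. The other 3, 7 and 5 of the 9 listed proteases did not reach a mean of 1 FPKM. Mmp14, a membrane-bound collagenase, was 49.2 and 134, 8.86 and 56.7, and 12.9 and 81.0 FPKM, and Mmp2, which it activates, 34.9 and 81.3, 5.45 and 18.5, and 6.63 and 31.3. Mmp13, an interstitial collagenase, stood at 1.999 and 26.9 FPKM in female WT and KO. Cathepsin K, Ctsk, was 5.11 and 21.6 FPKM there and 0.142 and 8.94 in Ctrl-KI and KI. The lowest log2 ratios among proteases kept were those of Fap (2.56 and 4.12) and Mmp9 (26.8 and 46.1) in female KO and Fap (0.676 and 5.71) in KI, all above their controls.

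Markers of fibro-adipogenic, endothelial, immune, Schwann and glial, and adipocyte cells had higher sums in each mutant, as the collagens did. Those of pericytes and smooth muscle, tendon, and cartilage and bone did not in every table, and myogenic sums were lower. The part of these cells in the result was not tested. The fibro-adipogenic list was above control for 13 of 15 genes in female KO, 13 of 15 in male KO and 14 of 15 in KI, beside 35.6%, 40.8% and 40.3% of all genes measured, but 5, 8 and 3 of the 15 were under 1 FPKM in both columns. Of those with a mean of at least 1 FPKM, 9 of 10, 6 of 7 and 9 of 10 were above control, beside 42.7%, 47.8% and 41.9% of all genes kept. Decorin, Dcn, stood at 15.9 and 69.4 FPKM in female WT and KO, 0.245 and 0.768 in male WT and KO, and 0.171 and 28.3 in Ctrl-KI and KI, so it stood low in the same columns as the type VI genes. Pdgfra, the marker by which these cells are usually sorted, was 2.46 and 13.7, 0.179 and 0.697, and 0.162 and 1.19 FPKM. Lum was listed at 0 in both male columns and in Ctrl-KI and was 0.579 FPKM in KI. Pi16 was listed at 0 in female WT. The genes of the list that went the other way were Gsn (41.5 and 31.0 FPKM) and Clec3b (0.0775 and 0.0517) in female KO and Tcf4 in the male (49.2 and 34.1) and KI (48.8 and 30.5) tables. Of these, Gsn and Tcf4 are not specific to fibro-adipogenic cells. Thy1 had the highest log2 ratio of the list in male KO (0.241 and 22.1).

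By their sum, mostly from Emcn, Cdh5 and Eng (1.17 and 13.3 FPKM in male WT and KO), endothelial markers stood out in male KO. Their sum was 3.56 and 74.6 FPKM for male WT and KO, with 11 of 12 above control, 28.6 and 44.7 for female WT and KO (10 of 12), and 3.79 and 11.3 in the KI table (10 of 11). Of these genes 3 in the female, 7 in the male and 9 in the KI table were under 1 FPKM in both columns. Beside these counts and the immune ones below, 35.6%, 40.8% and 40.3% of all genes measured were above control in female KO, male KO and KI. Emcn was 0.0268 and 40.6 FPKM in male WT and KO and Cdh5 0.0388 and 12.3, while Kdr, an endothelial receptor, was 0.0149 and 0.122. By log2 ratio Esam was the highest in female KO (2.73 and 6.26 FPKM) and Eng in KI (2.12 and 7.64), and Vwf the lowest in each table (3.07 and 1.97 in female KO). Immune markers summed to 8.96 and 16.2 FPKM for the females (7 of 10 above control), 1.57 and 10.3 for the males (8 of 9), and 1.05 and 41.6 in the KI table (8 of 9), with 8, 8 and 5 of them under 1 FPKM in both columns. Lyz2, a macrophage lysozyme, made up most of this in KI, at 0.282 and 31.0 FPKM, and C1qa was listed at 0 in Ctrl-KI and at 2.35 in KI. Csf1r had the highest ratio in female KO (0.477 and 2.58), and Itgam the lowest in each table, at 0.700 FPKM or less. Ptprc, which marks all leukocytes, stayed at or under 0.224 FPKM in all columns.

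Pericyte and smooth muscle markers, of which Acta2 and Des are also muscle genes, were 5 of 10, 5 of 9 and 7 of 10 above control in female KO, male KO and KI. Of all genes measured, 35.6%, 40.8% and 40.3% were. The sums of the pericyte and smooth muscle markers were lower in each mutant, 1506 and 783 FPKM for the females, 3182 and 1379 for the males and 3518 and 2948 in the KI table. Without Acta2 and Des they were 139 and 162, 20.1 and 14.7, and 64.3 and 205, so that the female and KI sums were then the higher in the mutant. At least 2-fold lower were Des (705 and 308), Acta2 (663 and 312) and the channel subunit gene Abcc9 (14.2 and 6.41) in female KO, and Abcc9 (14.9 and 2.73) and Acta2 (2000.3 and 724) in male KO. Abcc9 was also the lowest by ratio in KI (11.2 and 6.83), and Rgs5 the highest in male KO (2.06 and 6.40). Pdgfrb stood at 8.78 and 21.7 FPKM in female WT and KO and 0.442 and 26.7 in Ctrl-KI and KI. Tendon markers were 5 of 7 above control in each table, beside the same shares of all genes, but 2, 4 and 4 of the 7 were under 1 FPKM in both columns. Of those with a mean of at least 1 FPKM, 4 of 5, 1 of 2 and 2 of 3 were above control. The tendon sums were 36.1 and 53.8, 166 and 129, and 134 and 157 FPKM. Their transcription factor Scx was 12.9 and 7.83 for the females, 129.7 and 90.5 for the males and 92.4 and 84.5 in the KI table. Thbs4, a tendon matrix protein, had their highest ratio in female KO (4.49 and 13.2), and Mkx in male KO (0.479 and 1.12) and KI (0.718 and 2.24). Cartilage and bone markers summed to at most 34.7 FPKM in any column. Schwann and glial sums were 9.76 and 11.5 FPKM for the females, 0.410 and 1.05 for the males, and 0.244 and 3.31 in the KI table. Adipocyte sums were 27.9 and 35.1, 2.19 and 4.02, and 0.817 and 1.51 in the same order. Fabp4 (25.6 and 33.4 in female WT and KO) was the main part of the female adipocyte sums. Most Schwann, glial and adipocyte markers were under 1 FPKM in both columns. The cartilage regulator Sox9 was 10.8 and 18.5 FPKM in male WT and KO and 14.1 and 10.7 in Ctrl-KI and KI, where the cartilage and bone sum was 20.04 and 19.3. The myogenic list was mostly below control: 1 of 10 genes was above it in female KO and in male KO and 2 of 10 in KI. Of all genes kept, 42.7%, 47.8% and 41.9% were above control. At least 2-fold lower were 5, 6 and 0 of the 10, beside 4.45%, 6.54% and 0.877% of all genes kept, and 0, 1 and 0 were 2-fold higher. The list medians were -1.08, -2.10 and -0.18, and in KI each interval overlapped its control. The myogenic sums were 6652 and 2738 FPKM in the female, 13055 and 3560 in the male and 11191 and 9499 in the KI table.

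**Figure D4:**
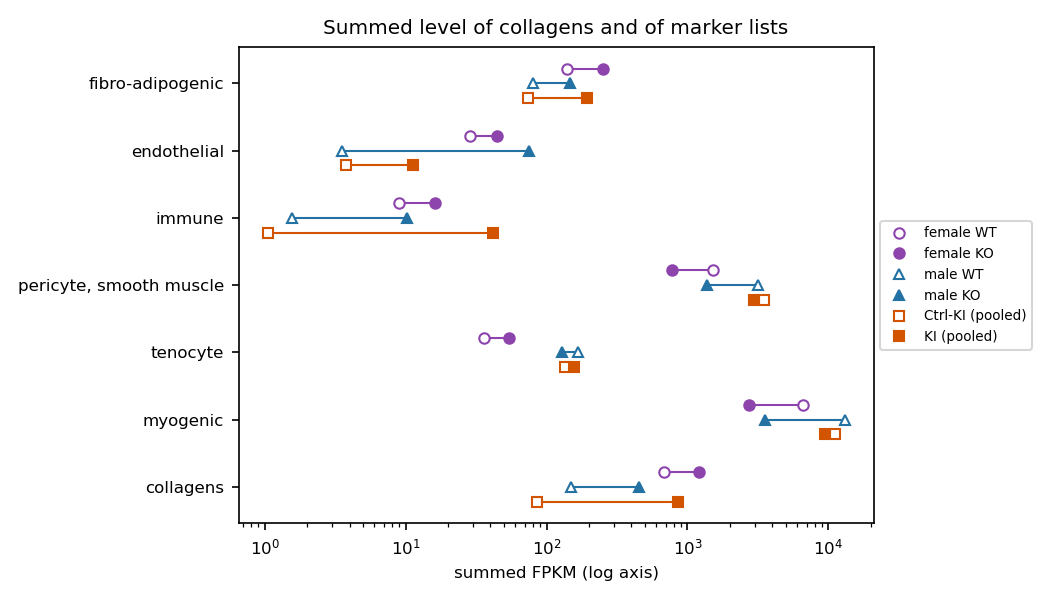
Summed FPKM (log axis) of the collagens and of 6 marker lists, control as open and mutant as filled symbols joined by a line, for the female KO (circles), male KO (triangles) and KI (squares) tables. Collagen and fibro-adipogenic sums (the latter with Gsn and Tcf4) are higher in every mutant and myogenic sums lower. The endothelial sum differs most in male KO (3.56 to 74.6) and the immune sum in KI (1.05 to 41.6). Schwann and adipocyte sums, not drawn, were also higher in each mutant.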

How the data were processed

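RNA-seq of 8 libraries in 6 groups was deposited as 3 tables laid out as Cuffdiff writes them. Per the file headers the authors deposited FPKM, its confidence bounds on both sides and an estimation status, 1 library per column in the KO tables and 1 pooled column per group in the KI table. Cufflinks 2.2.1, TopHat2 2.0.12, edgeR, Bowtie2 2.2.4, Cuffdiff, bedtools 2.16.2, HTSeq 0.6.1 and the build mm9 are listed, per the submitters' processing notes. Their roles, the annotation, strand setting and library scaling are not given in the sources used here. Samples were grouped by title.

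Loci without a symbol (0 female, 5680 male and 5971 KI) or with a status other than OK (6, 61 and 15) were left out, and merged symbols were kept as merged. Table starts are printed 1 higher, as they count from 0. Overlapping genes and close paralogues are uncertain. Depth is unknown: below 0.3 FPKM, where values move in steps of reads, the most frequent mutant-to-control ratio was 0.66, 0.966 and 0.841.

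Ratios used a pseudocount of 1 FPKM and a mean of at least 1 FPKM over both columns. That filter replaces 1 FPKM in either column, which would let a gene in through its mutant value alone more often. Female and male KO were tested together in limma 3.58.1 (R 4.3.3, mean-variance trend) on the within-table ratios against 0, with Benjamini-Hochberg adjustment over all genes. The script was run on simulated data in which the sexes differed less than they did for several collagens here. That run checked the code and does not show what the fit can detect in these data. The test planned for KI, should its libraries stand apart, was not run because the columns are pooled. Named are all collagens with a mean of at least 1 FPKM in a table, Kdm6a, Kdm6b and Uty, the 2 highest and 2 lowest genes of each pathway list and the highest and lowest of each marker list. For the cartilage and bone, Schwann, adipocyte and myogenic lists mainly sums are printed and not each highest and lowest gene, and further genes were picked with their values in view. The counts with a control of at least 1 FPKM for intervals, and the marker sums without single genes, were added after seeing the data. Members and lists were chosen with earlier results of these data known. Python 3.11.15, pandas 2.3.3 and numpy 2.4.6 were used.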

Additional observations from a re-analysis of the deposited data

How the results depend on the processing

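Counts of collagens at least 2-fold higher or lower were recomputed with pseudocounts of 0.1 and 5 FPKM, 4 other filters, 3 other scalings, every status and separated intervals. With a pseudocount of 5 FPKM, 3 of 24 collagens were 2-fold higher in female KO, beside 1.63% of all genes. With it 4 of 15 were higher and 0 lower in male KO, beside 4.00% and 4.29%. By separated intervals 0 were higher in female KO, 0 higher and 0 lower in male KO. With a mean of at least 5 FPKM 0 of 8 were lower in male KO, beside 7.16% of all genes. With at least 1 FPKM in the control 7 of 11 were higher in KI, beside 1.97%. Fewer genes enter under both filters. In male KO, TPM over loci with a symbol gave 13 of 20 higher, beside 14.4% of all genes. TPM over all loci gave 2 higher and 2 lower of 11 there, beside 2.36% and 25.4% of all genes. The last scaling moved the median log2 ratio of all genes from -0.03 to -0.71 in the male and from -0.04 to -0.78 in the KI table, as loci without a symbol held 72.8% and 86.1% of the FPKM sum in male WT and KO and 57.1% and 77.6% in Ctrl-KI and KI. The share of higher among all 2-fold calls went with it from 60.0% to 8.50% and from 80.0% to 8.71%, and over loci with a symbol it was 71.6% and 85.5%. In the female table this share was 50.1%, or 63.5% with median-centred ratios and 73.5% with TPM. The other counts stayed within 1.5 times, and no collagen past 2-fold changed sign under the settings run; smaller ratios that turned stand beside their values in the text above. The count of collagens passing limma over both sexes was 0 in each direction under all 7 alternatives, with a smallest adjusted p of 0.0903 to 0.123. No paired analysis was possible because the KI table pools the 2 libraries of each group, so no library could be left out either. Wide intervals limit the KO tables, where single collagens cannot be told apart from their controls.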
